A study of Mus musculus with 4 samples.

Results

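Actins and tubulins build the cytoskeleton, and the RNA of the 10 genes Actb, Actg1, Tuba1a, Tuba1b, Tuba1c, Tubb2a, Tubb2b, Tubb4b, Tubb5 and Tubb6 is described here in mouse liver. They were chosen by name, as the cytoplasmic actins and a set of alpha- and beta-tubulins, and each has 1 row among the 13903 genes of the deposited table. Tuba4a, the alpha-tubulin with the most reads in the control libraries, was not among them. All 10 passed the minimum of a mean of 10 CPM (counts per 1000000 reads on the listed genes), as did 8963 genes in all. Tuba1a and Tubb2b were under 10 CPM in both control libraries and passed through the OGT-KO libraries, so counts are given over all 10 genes chosen and none was dropped. OGT-floxed C57BL/6J mice, which carry a conditional allele of O-GlcNAc transferase, were used in all groups, and all were given the CDE diet (choline-deficient, ethionine-supplemented), which injures the liver. The virus AAV8-TBG-CRE gave the groups labelled OGT-KO, and AAV8-TBG-eGFP gave the groups labelled control. Mice of both labels had either no recovery from the diet or 7 days of it before sampling. RNA from 3 mice was pooled for each condition and sequenced as a single library, 4 in all, so there is no replicate, no p-value and no spread between animals. The TBG promoter directs Cre to hepatocytes, while the RNA is that of whole liver. In such bulk RNA, fewer cells of a type and less RNA per cell cannot be told apart.

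The libraries held 19972699 to 22866431 reads on listed genes, and 3 reads, taken as the lowest level that can be told from 0, were worth 0.131 to 0.1502 CPM. Ogt, the targeted gene, measured 64.7 CPM in the library labelled control and 55.3 CPM in the one labelled OGT-KO with no recovery, and 55.7 and 77.7 CPM after 7 days. At 7 days Ogt was therefore not lower in the library labelled OGT-KO (log2 fold change 0.47). With median-ratio scaling it was lower at both times (-0.93 and -0.20). The table holds 1 value for the whole gene and does not show the deleted exons. Libraries are named by their labels for this reason, and every direction below is one between labels. The 7 hepatocyte markers were all detected and summed to between 53731 and 84104 CPM.

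Actin monomers polymerise into filaments that carry cortical tension, cell shape and the canalicular border of hepatocytes. Alpha- and beta-tubulin form heterodimers that polymerise into microtubules, the tracks for vesicle transport and secretion and the fibres of the mitotic spindle. Each protein is encoded by several genes, and Actb and tubulin genes are often used as loading or reference genes in liver work. Acta2, the smooth muscle actin, marks activated stellate cells.

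At both times all 10 genes were higher under the OGT-KO label than under the control label, each by more than 2-fold. Of all 8963 genes compared, 24.4% were at least 2-fold higher with no recovery and 22.9% after 7 days, and 19.2% at both times. At least 4-fold higher were 6 of the 10 with no recovery and 7 after 7 days, against 7.71% and 8.79% of all genes. The median log2 fold change of the 10 was 2.51 with no recovery, with a range of 1.58 to 3.93, and 2.61 after 7 days, with a range of 1.63 to 3.45. The median of all genes compared was 0.51 and 0.48, so the smallest distances of a member above it were 1.07 with no recovery (Tuba1c) and 1.15 after 7 days (Actb). Members lay between percentiles 88.3 and 99.0 of all genes compared with no recovery, and between 88.3 and 97.6 after 7 days. In each of the 10 genes both libraries labelled OGT-KO were above both labelled control, an order that 70.0% of all genes compared shared. Summed over the 10 genes, the level was 1300.5 CPM under the control label and 4873 CPM under the OGT-KO label with no recovery, and 1084 and 4065 CPM after 7 days. The ratio of the sums was 3.75 at both times.

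**Figure D1:**
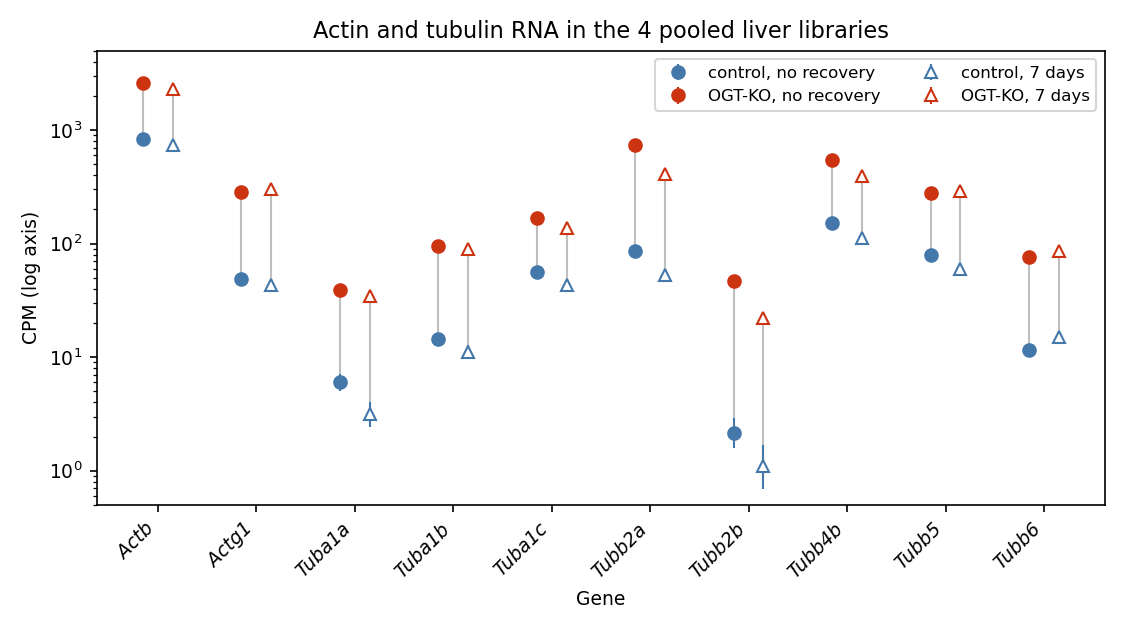
CPM of each gene on a log axis in the 4 pooled libraries: blue for the label control, red for OGT-KO, filled circles for no recovery, open triangles for 7 days. Vertical bars on the points are 95% exact counting intervals, mostly smaller than the symbols, and grey lines join the labels at 1 time; every red point lies above both blue points of its gene, from Actb (742 to 2604 CPM over the libraries) down to Tubb2b (1.10 to 47.3 CPM).

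Fold changes depend on how libraries are scaled. With median-ratio scaling, which divides each library by the median ratio of its genes to their mean over the libraries, the median log2 fold change of all genes compared was -0.19 and -0.18. On that scale 8 of the 10 genes were at least 2-fold higher at both times, against 10.4% of all genes with no recovery, 11.6% after 7 days and 9.35% at both times. With no recovery, 15.4% of all genes were then at least 2-fold lower, where the scaling to total reads had given 5.69%. After 7 days, 11.8% were at least 2-fold lower on that scale and 4.27% with total reads. Actb (0.91 and 0.95) and Tuba1c (0.87 and 0.96) were the members just below 2-fold with median-ratio scaling. With upper-quartile scaling all 10 were again at least 2-fold higher at both times, against 11.5% of all genes. No member changed direction with either scaling.

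**Figure D2:**
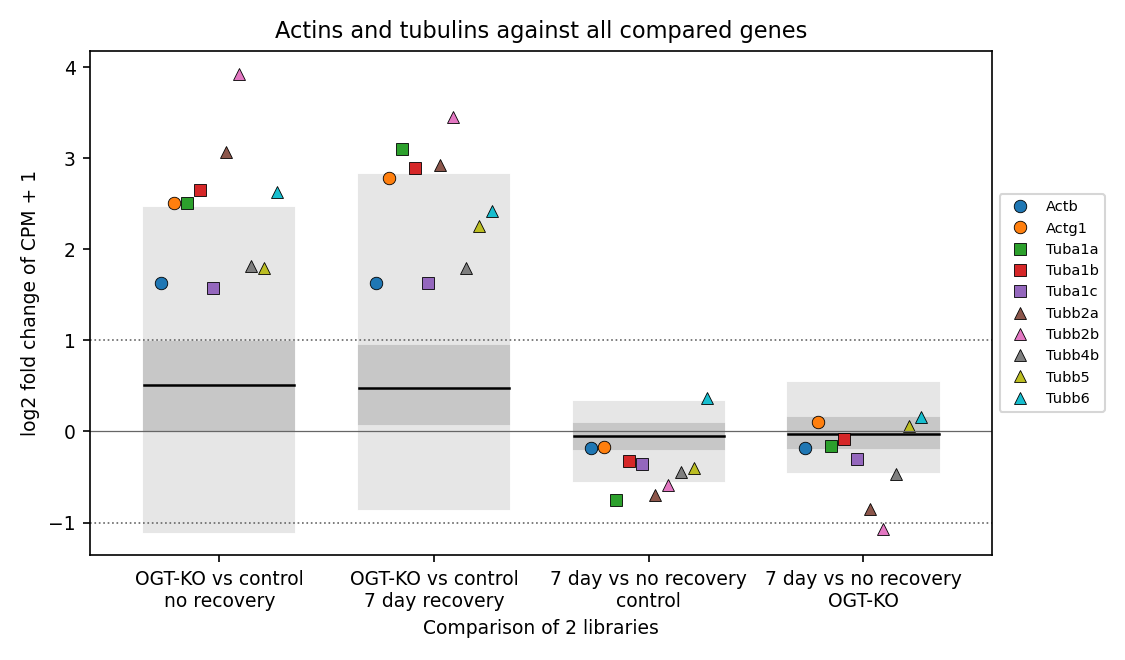
Log2 fold change of CPM + 1 of the 10 genes (actins as circles, alpha-tubulins as squares, beta-tubulins as triangles) in each of the 4 comparisons of 2 libraries. Pale boxes span the percentiles 5 to 95 of all 8963 genes compared, darker boxes 25 to 75, the black line is their median, and dotted lines mark 2-fold; the members lie above the upper dotted line between labels, at 1.58 to 3.93, and mostly below 0 between times.

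Actb, the beta-actin of nearly all cells, was the most abundant of the 10. It measured 842 CPM under the control label and 2604 CPM under the OGT-KO label with no recovery, and 742 and 2300.0 CPM after 7 days. The ratio of labels was 3.09 with no recovery (95% counting interval 3.04 to 3.14) and 3.10 after 7 days (3.05 to 3.16). With scaling to total reads, its difference between labels thus had the same size at both times within counting error. Its rank by CPM among all listed genes went from 150 to 30 and from 158 to 34. The counting intervals, here and below, cover counting error only, not the spread between mice.

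Actg1, the gamma-actin, differs from beta-actin by a few residues near its N-terminus. It measured 48.6 CPM and 283 CPM with no recovery and 43.2 CPM and 304 CPM after 7 days, in the order control, OGT-KO. The ratio was 5.81 (5.44 to 6.21) and 7.04 (6.55 to 7.56), so Actg1 differed more between labels than Actb at both times. Gamma-actin made up 5.46% of the reads of the pair under the control label with no recovery (Clopper-Pearson 95% interval 5.14 to 5.79%) and 9.79% under the OGT-KO label (9.56 to 10.02%). After 7 days the shares were 5.50% (5.15 to 5.87%) and 11.7% (11.4 to 11.9%). The intervals of the control shares at the 2 times overlapped, and both OGT-KO shares lay above them.

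The promoter of Actg1 is shown because, of the 7 member promoters searched, it was the one with a match to the CArG box, the site that serum response factor (SRF) binds. RefSeq promoter windows (GRCm38.p6, 250 bases before to 50 after the start) were found for 7 of the 10 genes, out of 32851 windows in all, and those of Actb, Tubb2b and Tubb6 were not analysed here. The window lies on the minus strand at chr11:120348496-120348645, is given 5′ to 3′ up to the base before the start, and its CArG box is in capitals. Motifs were searched on both strands.
Actg1: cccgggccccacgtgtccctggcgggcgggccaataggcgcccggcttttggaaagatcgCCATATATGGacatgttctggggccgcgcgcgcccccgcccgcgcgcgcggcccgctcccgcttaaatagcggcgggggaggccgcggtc
The match spans positions -90 to -81 from the start, and 1.63% of all windows hold a CArG box. A match of letters does not show that the site is bound.

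Tuba1a, Tuba1b and Tuba1c encode near-identical alpha-tubulins, and Tuba1a is best known from developing neurons. They lie together on chromosome 15 (GRCm38), within 106686 bases. Tuba1a measured 6.02 CPM under the control label and 39.1 CPM under the OGT-KO label with no recovery, and 3.15 and 34.8 CPM after 7 days. With no recovery its ratio was 6.49 (5.38 to 7.87), and at 7 days it was 11.0 (8.52 to 14.5), on 63 reads in the control library at 7 days. Tuba1a thus had the largest ratio of the Tuba1 genes after 7 days and rested on the fewest reads.

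Tuba1b, the alpha-tubulin found in most dividing cells, measured 14.3 and 95.2 CPM with no recovery and 11.2 and 89.7 CPM after 7 days, control first. Its ratio was 6.64 (5.88 to 7.51) and 7.997 (6.96 to 9.22). Tuba1c, the most abundant of the Tuba1 genes per kb of exon, measured 56.0 and 169.6 CPM with no recovery and 43.5 and 137 CPM after 7 days. Its ratio was 3.03 (2.84 to 3.24) and 3.15 (2.92 to 3.40), below those of its neighbours at both times. The proportions within the cluster therefore differed between labels: Tuba1c took 73.3% of the Tuba1 reads under the control label and 55.8% under the OGT-KO label with no recovery, and 75.2% and 52.4% after 7 days. The share of Tuba1b was 18.8% and 31.3%, then 19.4% and 34.3%. Summed over the cluster, the ratio with no recovery was 3.98 (3.77 to 4.203), and at 7 days it was 4.52 (4.24 to 4.82).

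Tuba4a and Tuba8, further alpha-tubulin genes, are no members but count in the total. Tuba4a, the leading alpha-tubulin of the control libraries, measured 211 and 272 CPM with no recovery and 147 and 163 CPM after 7 days, control first. On the log2 scale it was 0.37 and 0.15 higher under the OGT-KO label, but 0.35 and 0.53 lower with median-ratio scaling. Its share of the reads of all 5 alpha-tubulin genes was 72.3% and 43.6% with no recovery and 70.7% and 34.4% after 7 days. Per kb of exon its share was 60.4% and 30.5%, then 58.6% and 22.8%. On that measure, which uses all annotated exons of a gene, Tuba1c led in both OGT-KO libraries, with 30.7% and 31.1%. With no recovery the lead over Tuba4a was narrow, and by reads Tuba4a led in both. Tuba8, an alpha-tubulin with a more divergent sequence, measured 4.19 and 47.8 CPM, then 3.00 and 49.1 CPM, a log2 fold change of 3.23 and 3.65. Tuba8 passed the minimum only through the OGT-KO libraries. With these 2 genes counted and scaling to total reads, alpha-tubulin RNA summed to 2.14 times the control level with no recovery (2.08 to 2.21). After 7 days it was 2.28 times (2.20 to 2.36). On the log2 scale these are 1.10 and 1.18, against a median of 0.51 and 0.48 for all genes compared. The sums were not computed with median-ratio scaling, which lowers every ratio of labels.

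**Figure D3:**
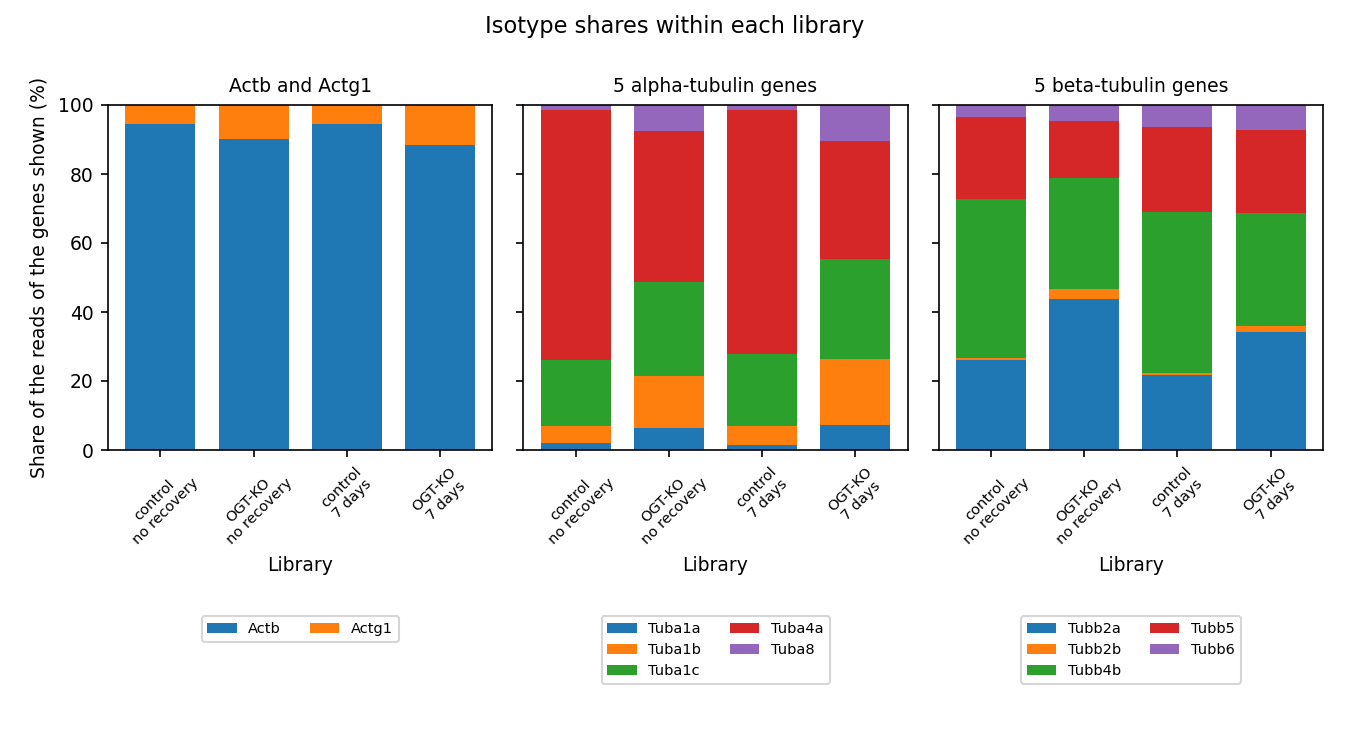
Stacked bars of each gene's share, in percent of the reads of the genes shown, in each of the 4 libraries, for the actin pair, the alpha-tubulins with Tuba4a and Tuba8, and the beta-tubulin members. Actg1, Tuba8 and Tubb2a take larger shares under the OGT-KO label, and Tuba4a takes a smaller one (43.6% against 72.3%, then 34.4% against 70.7%).

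Tubb2a and Tubb2b encode near-identical beta-tubulins, of which Tubb2b is best known from the developing brain. Their starts lie 52459 bases apart on chromosome 13 (GRCm38). Tubb2a measured 86.6 CPM under the control label and 737 CPM under the OGT-KO label with no recovery, and 52.9 and 409 CPM after 7 days. The ratio was 8.51 (8.11 to 8.93) and 7.73 (7.25 to 8.25), and per kb of exon Tubb2a passed Tubb4b to become the second most abundant member in both OGT-KO libraries. Tubb2b measured 2.16 and 47.3 CPM with no recovery and 1.10 and 22.0 CPM after 7 days. This was the largest difference of the 10 genes at both times, a ratio of 21.8 (16.3 to 30.0) and 20.0 (13.0 to 32.1), on 46 and 22 reads in the control libraries. Tubb2b took 2.44% of the reads of the pair under the control label and 6.03% under the OGT-KO label with no recovery, and 2.04% and 5.10% after 7 days.

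The Tubb2a promoter is shown because, of the 7 member windows searched (Tubb2b not among them), it was the one with the full cAMP response element TGACGTCA, the site of CREB and ATF factors. The window lies on the minus strand at chr13:34078009-34078158 (GRCm38.p6, from RefSeq), is given 5′ to 3′, and the element is in capitals.
Tubb2a: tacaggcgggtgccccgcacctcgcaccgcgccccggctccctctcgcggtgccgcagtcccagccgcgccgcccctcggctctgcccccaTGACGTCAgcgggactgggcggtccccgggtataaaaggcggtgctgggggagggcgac
The element spans positions -59 to -52 from the start, 1.79% of all windows hold it, and a TATAAA, held by 13.6% of all windows, follows at -29 to -24.

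Tubb4b, a beta-tubulin of most tissues and of cilia, measured 153 and 543 CPM with no recovery and 113 and 394 CPM after 7 days, control first. Its ratio was 3.54 (3.40 to 3.68) and 3.49 (3.34 to 3.66), the same at both times within counting error. Tubb5, the common beta-tubulin of dividing cells, measured 79.3 and 279 CPM, then 59.9 and 289.8 CPM, with ratios of 3.52 (3.33 to 3.71) and 4.84 (4.55 to 5.15). Tubb6, a class of beta-tubulin with a wide but low expression, measured 11.5 and 76.5 CPM, then 15.1 and 85.4 CPM, with ratios of 6.67 (5.83 to 7.66) and 5.67 (5.02 to 6.42). Tubb4b was the leading beta-tubulin in both control libraries, with 46.1% and 46.6% of the reads of the 5 genes, and had 32.3% and 32.8% under the OGT-KO label. Tubb2a had 26.0% and 21.9% under the control label and 43.8% and 34.1% under the OGT-KO label. The 5 beta-tubulins together were 5.05 times the control level with no recovery (4.93 to 5.18) and 4.96 times after 7 days (4.81 to 5.12).

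Tubb4b is shown because its promoter held more CCAAT boxes, the site of the factor NF-Y, than the other windows of the 7 searched. The window lies on the minus strand at chr2:25224703-25224852 (GRCm38.p6, from RefSeq), is given 5′ to 3′, and the 3 boxes within it are in capitals.
Tubb4b: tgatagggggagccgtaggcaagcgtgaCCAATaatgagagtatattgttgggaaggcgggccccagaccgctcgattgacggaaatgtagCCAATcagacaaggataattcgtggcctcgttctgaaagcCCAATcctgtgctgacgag
Over the full window it held 5, at positions -221, -188, -122, -59 and -19, and 11.7% of all windows hold at least 2. At least 1 CCAAT was found in 5 of the 7 member windows (Actg1, Tuba1a, Tuba1c, Tubb4b and Tubb5), and in 37.4% of all windows.

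Levels can be set between genes only per length, and per kb of exon in GENCODE M21 the order changed little between libraries. Actb came first in all 4 libraries, with 314 CPM per kb under the control label and 972 CPM per kb under the OGT-KO label with no recovery. Tubb2b came last in all 4, with 0.943 and 20.6 CPM per kb with no recovery. Actg1 moved from place 6 in both control libraries to place 4 in both OGT-KO libraries, at 18.3 and 106 CPM per kb with no recovery. Tuba1c moved from place 4 to place 6, at 24.5 and 74.1 CPM per kb. Lengths were the union of all annotated exons of a gene. In the control libraries Tuba1c was close to Tubb5 at place 5 (24.5 against 23.8, then 19.0 against 18.0 CPM per kb). The order of these genes depends on the length used.

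Some of these values rest on sequence that other genes share, which limits how far single genes can be told apart. Of all 100-base windows of a member's transcript, 65.1% in Tuba1a, 69.5% in Tuba1b and 53.4% in Tuba1c occurred in another gene too, mostly in the other Tuba1 genes. In Actg1 the share was 51.1%, led by processed pseudogenes such as Gm12715, with no window shared with Actb. It was 36.9% in Tubb2a and 27.7% in Tubb2b, mainly with each other, 29.2% in Tubb4b, 1.10% in Actb, and 0 windows in Tubb5 and Tubb6. How reads with several matches were counted is not given in the sources used here, so single values of Actg1, the Tuba1 genes, Tubb2a, Tubb2b and Tubb4b are uncertain. Summing Actb with Actg1, the Tuba1 genes with each other and Tubb2a with Tubb2b left 6 units, although for the actins the shared sequence is that of pseudogenes, which the sum leaves out. All 6 were at least 2-fold higher at both times, with medians of 1.90 and 2.21 on the log2 scale.

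Between the times, differences were small beside those between labels. Under the control label 9 of the 10 genes were lower at 7 days than with no recovery, where 60.5% of all genes compared were lower, and the median log2 fold change was -0.38 against -0.05 for all genes. None of the 10 passed 2-fold in either direction, where 0.960% of all genes were at least 2-fold lower and 0.245% at least 2-fold higher. At least 1.5-fold lower were 3 of the 10, against 4.06% of all genes. Tubb2b and Tuba1a were the furthest down, at ratios of 0.509 (0.292 to 0.864) and 0.524 (0.381 to 0.714), followed by Tubb2a at 0.611 (0.565 to 0.659). Tubb6 was the 1 gene higher at 7 days, with a ratio of 1.31 (1.11 to 1.56).

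Under the OGT-KO label 7 of the 10 genes were lower at 7 days, where 54.5% of all genes were lower, and the median was -0.17 against -0.03 for all genes. Only Tubb2b passed 2-fold, at a log2 fold change of -1.07 and a ratio of 0.465 (0.417 to 0.518), where 0.435% of all genes were at least 2-fold lower, and at -0.99 with median-ratio scaling it no longer did. Tubb2a had a ratio of 0.555 (0.541 to 0.569), and with Tubb2b it made 2 of the 10 at least 1.5-fold lower, against 2.33% of all genes. Tubb4b (0.725), Tuba1c (0.808), Actb (0.883), Tuba1a (0.891) and Tuba1b (0.942) had ratios below 1, although the interval of Tuba1b (0.886 to 1.001) reached 1. Tubb6 (1.12), Actg1 (1.07) and Tubb5 (1.04) had ratios above 1. The same 7 genes were lower at 7 days under both labels, as were 35.1% of all genes compared. The summed macrophage markers were lower at 7 days too, at 289 and 105 CPM under the control label and 1184 and 864 CPM under the OGT-KO label. So were endothelial markers (243 and 165 CPM, then 496 and 363 CPM) and T, NK and B cell markers (7.81 and 3.65 CPM, then 38.7 and 34.6 CPM). Sums of hepatocyte, bile duct and proliferation markers were higher at 7 days under both labels. Those of stellate and neutrophil markers were lower under the control label and higher under the OGT-KO label. The part of these cell types in the differences between times was not tested.

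With scaling to total reads, the log2 ratio of labels differed between the times by more than counting error in 5 of the 10 genes. This share is close to the 51.3% of all genes for which this held. It was larger at 7 days in Tuba1a by 0.77 (0.31 to 1.22), in Tubb5 by 0.46 (0.34 to 0.58), in Actg1 by 0.28 (0.14 to 0.42) and in Tuba1b by 0.27 (0.01 to 0.53). In Tubb2a it was smaller, with a difference of -0.14 (-0.25 to -0.02). Actb showed a difference of 0.00 (-0.03 to 0.04). Differences with median-ratio scaling were -0.11 in Tubb2a and 0.04 in Actb. The intervals were computed for total reads only, and the calls for Tubb2a and Actb depend on the scaling. With 1 library per condition these differences could not be tested against the spread between mice.

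Acta2 measured 5.22 and 94.3 CPM with no recovery and 2.95 and 62.4 CPM after 7 days, control first, a log2 fold change of 3.94 and 4.004. Acta2 passed the minimum only through the OGT-KO libraries. Actg2, a smooth muscle actin, measured 0.423 and 3.80 CPM, and after 7 days 0.709 CPM under the OGT-KO label and 2 reads, under the floor of 3, in the control library. Its mean fell below the minimum for comparison. Tubb3, the beta-tubulin of neurons, was listed at 0 in both control libraries and measured 4.77 and 2.84 CPM under the OGT-KO label. Against a floor of 3 reads in each control library (0.141 and 0.1502 CPM), it was at least 33.8-fold and at least 18.9-fold higher. Tubg1, the gamma-tubulin of the centrosome, measured 35.3 and 41.9 CPM, then 33.4 and 47.0 CPM, and was lower under the OGT-KO label with median-ratio scaling (-0.46 and -0.19).

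Partner proteins are given next as counts of the genes that passed the minimum of 10 CPM. A gene under 10 CPM in both control libraries could pass only by being higher under the OGT-KO label, so the count is also given over all genes of a list found in the table, with no minimum. Of 23 genes compared for monomer binding, branching and capping, 13 were at least 2-fold higher with no recovery and 13 after 7 days. Of all genes compared, 24.4% and 22.9% were. None of the 23 was at least 2-fold lower, and their medians were 1.24 and 1.09. The furthest apart were Tmsb10 and Tmsb4x, thymosins that sequester actin monomers (log2 fold change 3.49 and 3.75 for Tmsb10, 2.56 and 3.26 for Tmsb4x), Capg, a filament capping protein (3.33 and 3.15), and Arpc1b, a subunit of the branching complex Arp2/3 (2.03 and 2.13). With no minimum 15 of 25 were at least 2-fold higher at each time, and Capg was the 1 gene that passed only through the OGT-KO libraries. With median-ratio scaling 4 and 5 of the 23 were at least 2-fold higher, against 10.4% and 11.6% of all genes.

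Cross-linking and contractile proteins held the most genes past 2-fold among these lists. Of 25 genes compared, 18 were at least 2-fold higher with no recovery and 21 after 7 days, against 24.4% and 22.9% of all genes. None was at least 2-fold lower, and the medians were 1.78 and 1.97. With median-ratio scaling 15 were at least 2-fold higher at each time, against 10.4% and 11.6% of all genes. Of the 25, 5 passed only through the OGT-KO libraries, Ezr among them, and with no minimum 21 and 23 of 29 were at least 2-fold higher. Tagln2, a calponin family protein, measured 16.9 and 206 CPM, then 15.1 and 252 CPM, control first. Ezr, which links filaments to the membrane, measured 5.50 and 69.6 CPM, then 5.76 and 82.9 CPM. Flna, which cross-links filaments into networks, had a log2 fold change of 3.06 and 3.69, and Tagln, a smooth muscle protein, 3.15 and 2.96.

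Microtubule-binding and motor proteins differed less. Of 21 compared, 11 were at least 2-fold higher with no recovery and 10 after 7 days, against 24.4% and 22.9% of all genes. The medians were 1.04 and 0.98. With median-ratio scaling the counts were 4 and 5, against 10.4% and 11.6% of all genes. Stmn1, Kif3a and Clasp2 passed only through the OGT-KO libraries, and with no minimum the counts were 12 and 11 of 22. Stmn1 (stathmin), which binds tubulin dimers and destabilises microtubules, measured 4.66 and 36.7 CPM with no recovery and 4.61 and 54.7 CPM after 7 days. Dynll1, a dynein light chain, had a log2 fold change of 2.36 and 2.81, Kif3a, a kinesin motor of cilia, 2.25 and 2.36, and Clasp1, which stabilises plus ends, 1.74 and 1.67.

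The folding machinery of actin and tubulin had few genes past 2-fold. The 18 genes compared included all 8 subunits of the chaperonin CCT, prefoldins and tubulin cofactors. Their medians of 0.72 and 0.67 became 0.0083 and -0.0030 with median-ratio scaling. Of the 18, 3 were at least 2-fold higher at each time, against 24.4% and 22.9% of all genes. The 3 were Pfdn1 and Vbp1, subunits of prefoldin, and Ttc5, which starts the decay of tubulin mRNA when free tubulin is in excess. Ttc5 measured 5.93 and 19.9 CPM, then 7.81 and 17.7 CPM, and Pfdn1 measured 23.3 and 64.2 CPM, then 23.0 and 63.5 CPM. Vbp1 and Ttc5 passed the minimum only through the OGT-KO libraries, and with no minimum 4 and 3 of 20 were at least 2-fold higher. With median-ratio scaling none of the 18 was 2-fold higher, and Pfdn6, another prefoldin subunit, was at least 2-fold lower at both times (-1.14 and -1.07).

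Of 8 tubulin-modifying enzymes compared, 2 were at least 2-fold higher at each time, a share close to that of all genes (24.4% and 22.9%), with medians of 0.45 and 0.58. With median-ratio scaling the medians turned to -0.23 and -0.05 and the counts were 0 and 1. With no minimum 5 of 12 were at least 2-fold higher at each time. The 2 were Ttll12, a tubulin ligase-like protein (1.62 and 2.00), and Agbl5, a carboxypeptidase that removes glutamate side chains (1.47 and 1.40). Atat1, the acetyltransferase of alpha-tubulin, was in the opposite direction to the tubulins themselves, with 33.3 and 14.0 CPM with no recovery and 22.9 and 16.4 CPM after 7 days. The log2 fold changes were -1.19 and -0.46, and with median-ratio scaling -1.87 and -1.11.

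SRF and its MRTF cofactors sense free actin and drive actin genes, and 6 of 9 genes compared from that pathway were at least 2-fold higher with no recovery and 7 after 7 days, with medians of 1.32 and 1.27. Of all genes compared, 24.4% and 22.9% were at least 2-fold higher. With median-ratio scaling 3 and 2 of the 9 were, against 10.4% and 11.6% of all genes, and 1 was at least 2-fold lower with no recovery. With no minimum 9 and 10 of 12 were at least 2-fold higher. Ccn2, a matricellular protein that passed only through the OGT-KO libraries, measured 8.14 and 146 CPM, then 3.00 and 66.7 CPM. Ccn1, of the same family, had a log2 fold change of 2.25 and 1.72, and the focal adhesion proteins Zyx and Vcl 1.76 and 1.27, and 1.32 and 1.40. Srf itself differed by 0.18 and 0.07, and by -0.50 and -0.58 with median-ratio scaling. Egr1, another gene of this list, was lower with no recovery (-0.50) and higher after 7 days (0.74).

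**Figure D4:**
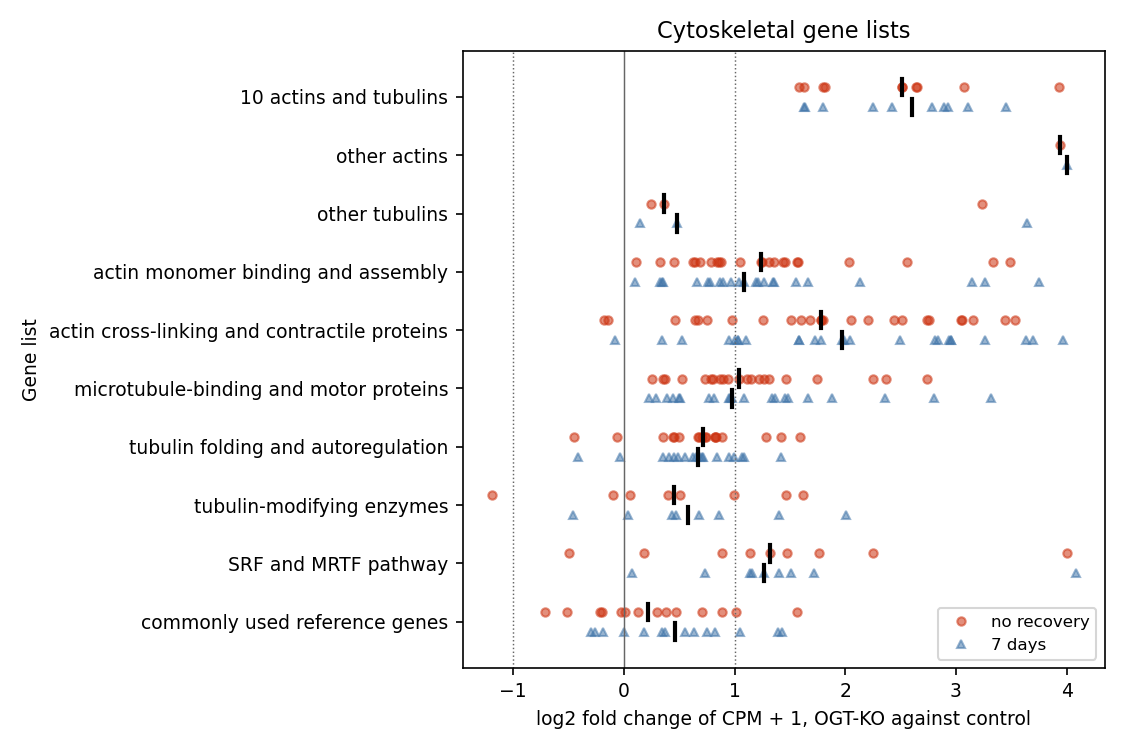
Log2 fold change of CPM + 1 between the labels OGT-KO and control for every gene compared in 10 lists, red circles with no recovery and blue triangles after 7 days. Black bars are list medians, the solid line marks 0 and the dotted lines 2-fold; the members have medians of 2.51 and 2.61, cross-linking and contractile proteins 1.78 and 1.97, and commonly used reference genes 0.21 and 0.46.

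Actb serves as a reference gene in many assays, so it was set against 14 other genes used that way. Of these, 2 were at least 2-fold higher with no recovery and 3 after 7 days, near or below the shares of all genes (24.4% and 22.9%), with medians of 0.21 and 0.46. With median-ratio scaling the medians turned to -0.49 and -0.21, and none was 2-fold higher at either time. On that scale 2 of the 14 were at least 2-fold lower with no recovery, near the 15.4% of all genes, and 0 after 7 days. The ratio of Actb to each of the 14 was higher under the OGT-KO label at both times, by a median of 1.41 on the log2 scale with no recovery and 1.16 after 7 days, and by at least 0.06 and 0.15. Such a ratio within a library does not depend on the scaling. Gapdh, a glycolytic enzyme, measured 935 and 1021 CPM with no recovery and 932 and 1187 CPM after 7 days, a ratio of Actb to Gapdh of 0.901 and 2.55, then 0.796 and 1.94. Ywhaz, a signalling adaptor, came nearest to Actb with no recovery (log2 fold change 1.56), and Tfrc, the transferrin receptor, after 7 days (1.43). Actg1 was further from the 14, by medians of 2.32 and 2.34 and by at least 0.97 and 1.33.

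Counts of cell type markers are given over every gene of a list that was found, with no minimum. Of all genes compared, 24.4% were at least 2-fold higher with no recovery and 22.9% after 7 days. All 10 stellate and myofibroblast markers were at least 2-fold higher under the OGT-KO label at both times, and their sum was 113 to 170 CPM in the control libraries and 3264 to 4078 CPM in the OGT-KO libraries. Of 8 macrophage markers 7 were at least 2-fold higher at each time, with sums of the list of 105 to 289 CPM and 864 to 1184 CPM. All 6 bile duct markers were at least 2-fold higher too, with sums of 53.9 to 69.9 CPM and 1157 to 1469 CPM. Most of each bile duct sum was Spp1 alone, at 41.0 to 52.1 CPM and 977 to 1245 CPM. Endothelial markers were at least 2-fold higher in 4 of 7 with no recovery and 2 of 7 after 7 days, the latter near the 22.9% of all genes, and in 1 and 2 of 7 with median-ratio scaling, with sums of 165 to 243 CPM and 363 to 496 CPM. Of the 7 hepatocyte markers 3 were at least 2-fold lower at both times and none higher, against 5.69% and 4.27% of all genes lower. With median-ratio scaling 6 and 5 were at least 2-fold lower, against 15.4% and 11.8% of all genes. The hepatocyte markers had sums of 77105 to 84104 CPM and 53731 to 65032 CPM. All 6 proliferation markers were at least 2-fold higher, with sums of 65.6 to 73.5 CPM and 402 to 746 CPM. T, NK and B cell markers were at least 2-fold higher in 2 of 4 with no recovery and 1 of 4 after 7 days, the latter near the 22.9% of all genes. Neutrophil markers were in 2 and 3 of 3. T, NK and B cell markers summed to 3.65 to 7.81 CPM and 34.6 to 38.7 CPM, and neutrophil markers to 1.001 to 2.40 CPM and 14.0 to 23.4 CPM. No marker found in the table was at 0 in any library, and 3 listed lymphocyte markers and 1 neutrophil marker were not analysed here. Acta2 and Tagln stand in both the stellate list and the lists above. The part of these cell types in the levels of the 10 genes was not tested.

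The 5 genes whose profile over the 4 libraries was nearest to the mean profile of the 10 were Col12a1, Adamtsl4, Tgfb1, Tnfrsf21 and Cd93. Their distances, Euclidean on centred log2(CPM + 1), were 0.087 to 0.105 among 8953 other genes, and those of the members themselves to their mean ran from 0.347 (Tuba1b) to 1.37 (Tubb2b). Col12a1, a fibril-associated collagen, measured 3.72 and 22.5 CPM, then 2.50 and 19.7 CPM. Tgfb1, the cytokine TGF-beta 1, measured 9.78 and 52.6 CPM, then 6.66 and 44.1 CPM, and Cd93, a receptor of endothelial and myeloid cells, 6.96 and 40.8 CPM, then 4.96 and 36.0 CPM. Each of the 5 genes was under 10 CPM in both control libraries and passed the minimum only through the OGT-KO libraries. With 4 libraries the likeness describes mostly the difference between labels, which the minimum itself requires of such genes.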

How the data were processed

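Total RNA of liver (TRIzol) was made into 1 poly(A) RNA-seq library per condition from the pooled RNA of 3 mice. The submitters' processing notes name STAR, DESeq2 and GRCm39 without roles or versions; the counter, annotation, read length and filter are not given in the sources used here. The authors deposited 1 table of CPM for 13903 genes. It is named for DESeq2 normalization, but every column sums to 1000000 and 100% of values are whole multiples of 1 read (tolerance 0.05), so reads were recovered (19972699 to 22866431 per library). No column was left out.

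The 8963 genes averaging 10 CPM or more over the libraries were compared as differences of log2(CPM + 1), which understates the change of low genes, and called at 2-fold. There was no test of conditions. Ratios carry exact conditional binomial 95% intervals and shares Clopper-Pearson intervals, both for counting error only. Levels per kb used the union of a gene's exons in GENCODE M21, and promoters were those of RefSeq, both GRCm38, which is not the build of the files. All 10 members were found in GENCODE M21. An exact binomial comparison of the reads of 2 libraries, with Benjamini-Hochberg adjustment, compares libraries, not conditions. Named genes were the members, the 4 genes per list with the largest mean absolute difference, single genes set with the lists (among them Acta2, Stmn1 and Gapdh), Ogt and the 5 genes nearest in profile. Srf, Egr1, Pfdn6 and Clasp2 were named after their values were seen. The 10 members and all lists were chosen with earlier results of these data known. Python 3.11, numpy 2.4.6, pandas 2.3.3, scipy 1.17.1 and matplotlib 3.10.9 were used. Alternatives were other pseudocounts, minimums, thresholds and scalings, summed copies and shares per kb.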

Additional observations from a re-analysis of the deposited data

Results flagged for a closer look

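Actg1 and Tubb5 differed in opposite directions between the times under the 2 labels. Actg1 had a log2 fold change from no recovery to 7 days of -0.17 under the control label and 0.10 under the OGT-KO label. Tubb5 had -0.40 and 0.056. With 1 library per condition, the difference between the labels was not tested against the spread between mice.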

How the results depend on the processing

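No paired analysis was possible because each condition has 1 library and no comparison of conditions was tested. Of 124 values recomputed under the alternatives, 95 stayed within 1.5 times the count or within counting error. A total of 0 were called reversed, but only log2 values of at least 1 could be. Counts, shares and the medians between times could not. The median of the 10 genes between labels, 2.51 with no recovery and 2.61 after 7 days, was 1.88 and 1.85 with a pseudocount of 10 CPM, 1.82 and 2.25 over the 7 genes averaging 50 CPM or more, 2.05 and 2.13 with upper-quartile scaling, 1.82 and 1.94 with median-ratio scaling, and 1.90 and 2.21 with near-identical copies summed (6 of 6 units at least 2-fold higher at both times). At a 4-fold threshold 6 genes passed with no recovery (7.71% of all genes) and 7 after 7 days (8.79%). Between times, the control median of -0.38 was -0.24 with a pseudocount of 10 CPM, and 3 genes passed a 1.5-fold threshold downwards (4.06% of all genes). Under the OGT-KO label the median of -0.17 was -0.098 with median-ratio scaling; the count of 1 (Tubb2b) was 2 at 1.5-fold (2.33% of all genes) and 0 at 4-fold, with a pseudocount of 10 CPM, a minimum of 50 CPM, median-ratio scaling or summed copies. Per kb of exon, Tuba1c took 69.0%, 50.6%, 71.1% and 47.2% of the Tuba1 level (control and OGT-KO with no recovery, then after 7 days), and Tubb2b 1.72% and 4.31% of the Tubb2 level with no recovery and 3.64% under the OGT-KO label after 7 days. The difference between times kept its sign in 9 of 10 genes with median-ratio or upper-quartile scaling. The exact binomial comparison of reads gave adjusted p-values under 0.05 for 8016 and 7904 of 8963 genes between labels and 3557 and 5065 between times, and changed no 2-fold count. The cause of these shifts was not tested. Depth limits Tubb2b and Tuba1a most, on 22 and 63 reads in the control library at 7 days.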
